A study of Mus musculus with 6 samples.

Results

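Basal and squamous epithelial genes mark the cells at the base and in the upper layers of stratified epithelia, and 10 of them were followed in whole lungs of mouse embryos that lacked Dppa2. The genes were chosen by name, with earlier results of these data known. The basal genes were Krt5, Krt14, Krt15 and Trp63, and the squamous genes were Krt4, Krt13, Krt6a, Dsg3, Krtdap and Sbsn. Their accessions matched 14 of the 41174 probes of the array, and the 10 genes are among 18217 with a symbol. Of the 10, 6 genes were bright enough to be tested, and these were all 4 basal genes and the squamous genes Krt13 and Sbsn.

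Each of the 6 arrays held the total RNA, labelled with the dye Cy3, of the lungs of 1 embryo at E18.5, a stage of late gestation. The embryos came from intercrosses of mice with the alleles 15-1+/Flox and 15-2+/-, where ECAT15-1 is Dppa4 and ECAT15-2 is Dppa2. The 3 wild type (WT) embryos were 15-1+/+ and 15-2+/+, and the 3 knockout (KO) embryos were 15-1Flox/Flox and 15-2-/-, so every knockout also carried the floxed Dppa4 alleles. All came from a mixed background of 129Sv and C57/BL6 with a Cre or FLPe line of unknown background, and the labels give neither the litter nor the sex of an embryo. The labels give the deletion for the whole embryo and not for a cell type, so an effect within the lung and one from outside it cannot be told apart.

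Basal cells are the progenitors of the pseudostratified airway and of squamous epithelia. The transcription factor p63, encoded by Trp63, maintains them, and they carry the keratin pair made of Krt5 and Krt14. Cells that leave the basal layer of a squamous epithelium switch to other keratins, such as the pair Krt4 and Krt13 in moist linings, and those of the skin build a cornified envelope. In the mouse lung basal cells lie mainly in the trachea and the largest airways, and squamous cells are not a normal part of its lining.

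The stretch before the start of each gene shows which binding motifs the 2 classes have there, and is printed for the tested genes found in a table of RefSeq promoters on the build GRCm38.p6. It held 5 of the 10 genes, namely Krt5, Krt14, Krt13, Krtdap and Sbsn. Each line gives the 250 bases before the start, 5′ to 3′ on the strand of the gene, and capitals mark a match to a motif. The positions are chr15:101712906-101713155 (minus strand) for Krt5, chr11:100206031-100206280 (minus strand) for Krt14, chr11:100121567-100121816 (minus strand) for Krt13 and chr7:30751221-30751470 (plus strand) for Sbsn.
Krt5: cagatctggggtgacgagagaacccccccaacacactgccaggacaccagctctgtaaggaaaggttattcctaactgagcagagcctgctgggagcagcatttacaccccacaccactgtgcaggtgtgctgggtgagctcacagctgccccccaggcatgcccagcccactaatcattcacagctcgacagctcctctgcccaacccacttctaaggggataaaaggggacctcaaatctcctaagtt
Krt14: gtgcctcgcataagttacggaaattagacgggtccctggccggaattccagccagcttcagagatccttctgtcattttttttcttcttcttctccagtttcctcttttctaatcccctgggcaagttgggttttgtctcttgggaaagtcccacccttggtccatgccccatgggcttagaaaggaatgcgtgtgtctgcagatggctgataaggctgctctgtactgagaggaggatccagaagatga
Krt13: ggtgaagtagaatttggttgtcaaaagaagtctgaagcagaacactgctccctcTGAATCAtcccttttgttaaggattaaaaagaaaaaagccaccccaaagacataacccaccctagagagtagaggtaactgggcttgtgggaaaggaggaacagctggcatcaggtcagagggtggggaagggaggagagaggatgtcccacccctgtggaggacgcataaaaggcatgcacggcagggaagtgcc
Sbsn: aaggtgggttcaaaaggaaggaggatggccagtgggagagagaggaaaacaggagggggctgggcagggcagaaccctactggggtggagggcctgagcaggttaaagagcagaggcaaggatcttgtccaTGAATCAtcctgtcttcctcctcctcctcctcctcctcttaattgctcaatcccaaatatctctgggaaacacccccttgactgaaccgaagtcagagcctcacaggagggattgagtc
The motifs searched on both strands were the TATA box TATAAA, the AP-2 site GCCNNNGGC and TGANTCA, a loose AP-1 form with any middle base. The last was a p63 core pair, spelled CATG, then 6 bases of any kind, then CATG again. These 4 motifs matched 12.4%, 13.7%, 6.75% and 0.49% of the 32851 RefSeq windows of 250 bases. The loose AP-1 letters were found in the windows of all 3 squamous genes in the table. They read TGAATCA in the Krt13 and Sbsn windows printed and TGAGTCA in Krtdap. They began 196 bases before the start in the Krt13 window printed, 119 bases before it in Sbsn and 81 bases before it in Krtdap. The second Krt13 start in the table had 2 matches, at 183 and 34 bases before it. Krtdap also had the TATA box letters, 30 bases before its start. None of the 4 motifs was found in the windows of Krt5 and Krt14. A match of letters is a description of the window and not a measured binding site.

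The values below are log2 intensities of a probe relative to the 75th percentile of all intensities on the same array, so that 0 is the level of that percentile and -5 lies 5 doublings under it. Between 63.3% and 68.8% of the probes lay well above background on an array, a flag the scanner software gives each spot. The lowest signal with that flag was -6.86 to -5.79, and it was highest in KO 1. By the barcode in the file headers, WT 1, WT 2 and KO 3 shared a slide. WT 3 lay on its own, and KO 1 and KO 2 shared another. By the number in the raw file's label, KO 3 went with WT 3 instead. That number also put WT 1 with WT 2, and KO 1 with KO 2. The SD of KO 3 minus WT 3 over all features was 0.386, beside 0.527 and 0.520 for WT 1 and WT 2. Values within the shared slide follow the barcode, and which grouping reflects a batch was not tested. Y-linked genes gave signal in WT 1 and WT 2 only and Xist in the other 4 embryos, so sex and genotype were not balanced. All 10 lung epithelial markers looked at were well above background on all 6 arrays. The probe for Dppa2 gave -3.25, -3.52 and -3.57 in the wild types and -4.94, -4.98 and -4.08 in the knockouts, all above background. Where it lies relative to the deleted part is not given in the sources used here, so it does not check the labels. In RNA from a whole organ, fewer cells of a type and less RNA per cell cannot be told apart.

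No gene of the 10 passed the test across all features (limma, Benjamini-Hochberg adjusted p under 0.05). With 1 probe per gene, 3 had an unadjusted p under 0.05, all of them basal. The Sbsn probe not kept had a difference of -0.70 and an unadjusted p of 0.0435 (limma, every probe tested). Of the 19857 features, 0.619% were called lower in knockouts and 0.72% higher, 1.34% together, while 25.7% had an unadjusted p under 0.05. Krt5, Krt14 and Trp63 were lower in every knockout than in any wild type lung, against 14.3% of all features that were lower without overlap, 17% that were higher and 31.3% in either direction. A negative difference was found for 49% of features and for 4 of the 6 genes. Krt15 and the probes kept for Krt13 and Sbsn overlapped between the groups. A correction of the background by the method normexp turned the sign of all 3 of those basal genes, as given with their values.

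**Figure D1:**
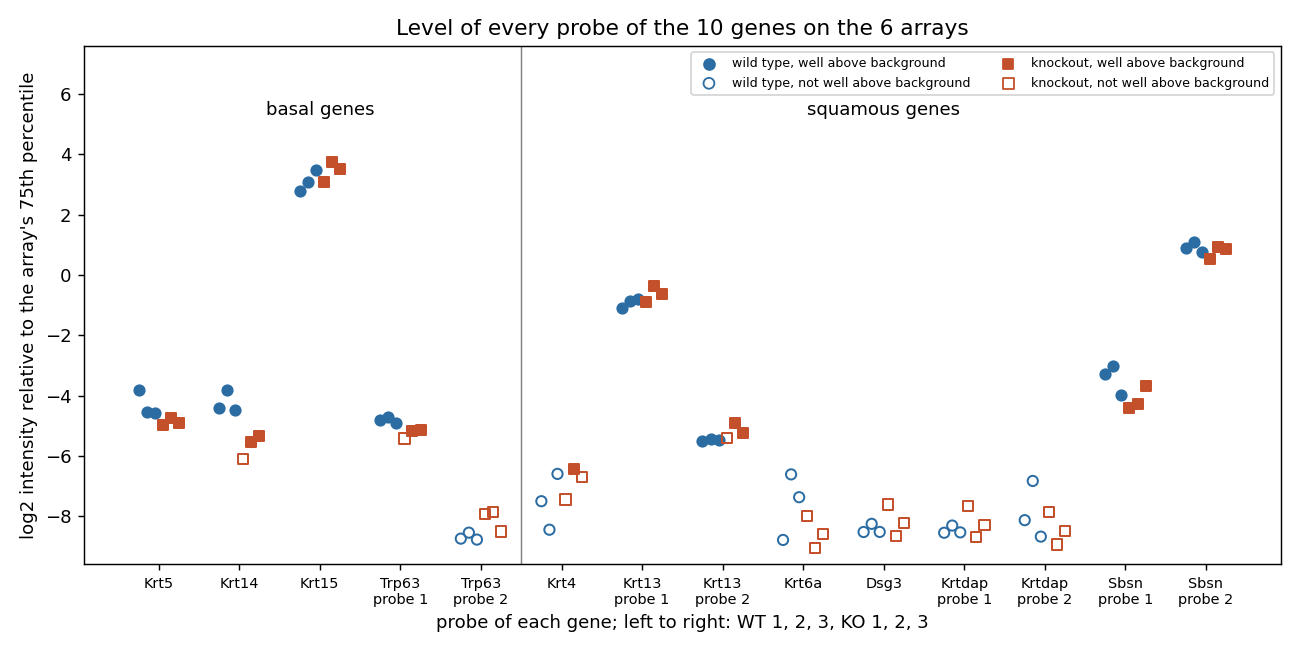
Log2 intensity relative to the array's 75th percentile (vertical axis) for each of the 14 probes (horizontal axis), with wild types 1 to 3 as circles and knockouts 1 to 3 as squares from left to right; open symbols were not well above background. The knockouts lie below all wild types for Krt5, Krt14 and the first Trp63 probe, a direction that turns with normexp background correction, and 6 probes, 5 of them of squamous genes, have open symbols on at least 5 arrays.

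Krt14, the type I partner of Krt5 in basal cells, had the largest difference of the 6 tested genes. Its levels were -4.42, -3.80 and -4.48 in WT 1, 2 and 3, and -6.11, -5.55 and -5.33 in KO 1, 2 and 3. All knockouts were lower than all wild types, and KO 1, the lowest, was not well above background. The means were -4.23 ± 0.37 (SD, n = 3) and -5.66 ± 0.40 (SD, n = 3). The knockouts were lower by 2.69-fold, a log2 difference of -1.43 with a standard error of 0.26 and a 95% confidence interval from -2.03 to -0.82. The adjusted p was 0.0520 (limma), just over the threshold. Without KO 1 the difference was -1.20 (adjusted p = 0.117), and within the shared slide KO 3 differed from the mean of WT 1 and WT 2 by -1.22. Against WT 3 alone, the only wild type without Y-linked signal, the difference was -1.18. KO 3 against WT 3, which share a file number, gave -0.85. A term for the Y-linked signal gave an adjusted p of 0.466 for this gene.

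Krt14 is the gene whose call moved with the settings. It passed in 5 of 19 alternatives, with adjusted p-values over all of them from 0.0269 to 0.818. It passed with median scaling (-1.56, adjusted p = 0.0470), with an intensity trend in the variance (0.0492), with the number in the raw file's label as a random block (-1.50, adjusted p = 0.0269), without WT 3 (-1.55, adjusted p = 0.0333) and without KO 3 (-1.60, adjusted p = 0.0463). With normexp the difference was 0.37 in the other direction.

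Krt5, the type II keratin of the pair, had a smaller difference. Its levels were -3.80, -4.54 and -4.57 in the wild types and -4.99, -4.75 and -4.91 in the knockouts, all well above background. No knockout reached the lowest wild type, WT 1 stood highest, and WT 2 and WT 3 lay nearer to the knockout mean than to WT 1. The means were -4.31 ± 0.44 and -4.88 ± 0.12 (SD, n = 3 each). The difference was -0.58 with a standard error of 0.22 and an interval from -1.09 to -0.06, which did not pass (adjusted p = 0.159, limma). It was -0.74 within the shared slide, -0.31 against WT 3 alone and -0.33 without WT 1. KO 3 against WT 3 gave -0.34.

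Trp63, which encodes the regulator of basal identity, had 2 probes. The first gave -4.80, -4.71 and -4.92 in the wild types and -5.43, -5.18 and -5.13 in the knockouts. The 3 knockouts were lower than the 3 wild types, and KO 1 was not well above background, as for Krt14. The difference was -0.44 with a standard error of 0.12 and an interval from -0.73 to -0.14, a 1.35-fold lower mean (adjusted p = 0.0978, limma). Within the shared slide it was -0.38, and KO 3 against WT 3 gave -0.22. Its second probe gave no signal above background in any of the 6 lungs and is only a bound. Trp63 lies on chromosome 16, as do Dppa2 and Dppa4.

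Background correction bore on these 3 dim genes alike. Normexp on the scanner's median signals gave differences of 0.61 for Krt5 and 0.76 for Trp63, beside the 0.37 of Krt14. Under that correction 0.440% of the 3406 features with a mean level from -6 to -4 had a negative difference, and their median was 0.98. In the main processing the same features had a median difference of 0.19, with 35.6% negative and 9.34% lower in knockouts without overlap. Krt5, Krt14 and Trp63 lay under the median of features of like level in either processing. Many features must lie under a median, and Krt14 and Trp63 passed the filter through the wild types, where they are high. The place of these 3 genes under it therefore gives no support for a fall.

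Krt15, a type I keratin of basal cells with no fixed partner, ran the other way. Its levels were 2.78, 3.07 and 3.49 in the wild types and 3.08, 3.74 and 3.52 in the knockouts. The groups overlapped, and WT 3 was close to KO 3. The difference was 0.34 with a standard error of 0.23 and an interval from -0.22 to 0.89 (adjusted p = 0.402, limma). It was 0.17 without WT 1, 0.53 without WT 3, 0.52 without KO 1 and 0.19 without KO 2. The difference was 0.60 within the shared slide and -0.045 against WT 3 alone, so its direction depended on the wild types with Y-linked signal.

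**Figure D2:**
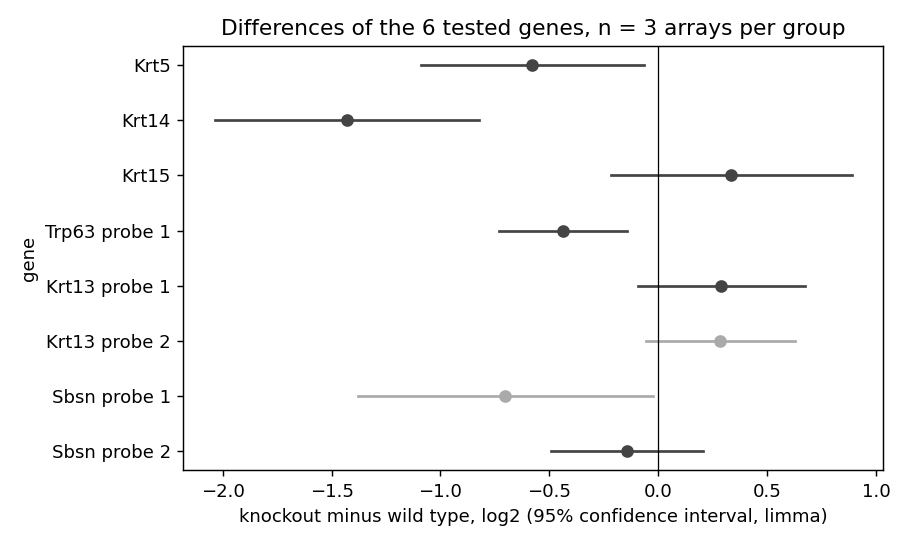
Knockout minus wild type difference in log2 intensity (horizontal axis) with its 95% confidence interval from limma for each tested probe (vertical axis), 3 arrays per group; dark points are the probe kept for a gene and grey points its other probe. The intervals of Krt5, Krt14, Trp63 and Sbsn probe 1 lie under 0 before adjustment, and those of Krt15, both Krt13 probes and Sbsn probe 2 include 0.

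Krt13, the type I keratin of moist squamous linings, was measured by 2 probes. The first gave -1.09, -0.87 and -0.81 in the wild types and -0.91, -0.37 and -0.62 in the knockouts, with overlap between the groups. Its difference was 0.29 with a standard error of 0.16 and an interval from -0.10 to 0.67 (adjusted p = 0.304, limma), and it was 0.16 without KO 2. The second gave -5.51, -5.43 and -5.47 in the wild types and -5.41, -4.91 and -5.24 in the knockouts, KO 1 not above background. Here all knockouts were higher than all wild types, the nearest being KO 1 and WT 2 at -5.41 and -5.43. The difference was 0.28, with an adjusted p of 0.270 when every probe was tested by itself. Both probes thus pointed to slightly higher values in the knockouts, within the error of the test.

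Krt4, the partner of Krt13, was above background only in KO 2, at -6.44, and was not tested. Its other values lay between -8.45 and -6.60 and are at most bounds. Krt6a, a keratin of stressed and fast-growing epithelium, Dsg3, a cadherin of the desmosomes of stratified epithelia, and Krtdap, a secreted protein of differentiating keratinocytes, were below background on all 6 arrays, Krtdap with both of its probes. Such a probe shows that the transcript was not detectable here, not that it was absent.

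Sbsn encodes suprabasin, a secreted protein of the suprabasal layers. Its 2 probes gave unlike pictures. The probe kept for the gene gave 0.91, 1.09 and 0.76 in the wild types and 0.54, 0.93 and 0.86 in the knockouts. The groups overlapped, and the difference was -0.14 with a standard error of 0.15 and an interval from -0.49 to 0.21 (adjusted p = 0.576, limma). It was -0.056 without WT 2, -0.22 without WT 3, -0.026 without KO 1 and -0.22 without KO 2. The other probe gave -3.29, -3.03 and -4.0 in the wild types and -4.43, -4.29 and -3.70 in the knockouts. KO 3 lay above WT 3 by 0.30, so these groups overlapped too. The difference of that probe was -0.70 (adjusted p = 0.188 with every probe tested), with -0.54 in the shared slide and -0.14 against WT 3 alone. Which transcripts of Sbsn each probe detects was not tested.

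Set side by side, the median difference was -0.51 over the 4 basal genes and 0.07 over the 2 squamous genes tested, Krt13 and Sbsn, against 0.0082 over all features. The basal minus squamous contrast was therefore -0.58, a description of few genes with no test. As a mean deviation from the wild type means, the basal genes were at -0.80 in KO 1, -0.38 in KO 2 and -0.40 in KO 3, and between -0.060 and 0.063 in the wild types. The squamous genes were at -0.18, 0.28 and 0.12 in the knockouts. The basal mean was under the squamous mean by 0.62, 0.66 and 0.52 in KO 1, 2 and 3. Krt14 and Trp63 passed the filter through the wild types, where they are high, and were below background in KO 1, so these values give no support for a difference between the classes. Krt15 was the exception among the basal genes. Kept to genes above background on all 6 arrays, which leaves out Krt14 and Trp63, the contrast was -0.19. With normexp the contrast was 0.43. That correction moved features by level, with medians of 0.98 from -6 to -4, 0.18 from -2 to 0 and -0.12 from 0 to 2. The part of this shift in the contrast was not tested. The wider lists had medians in the other order, 0.02 over 20 other basal and attachment genes and -0.32 over 14 other squamous and cornified envelope genes.

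**Figure D3:**
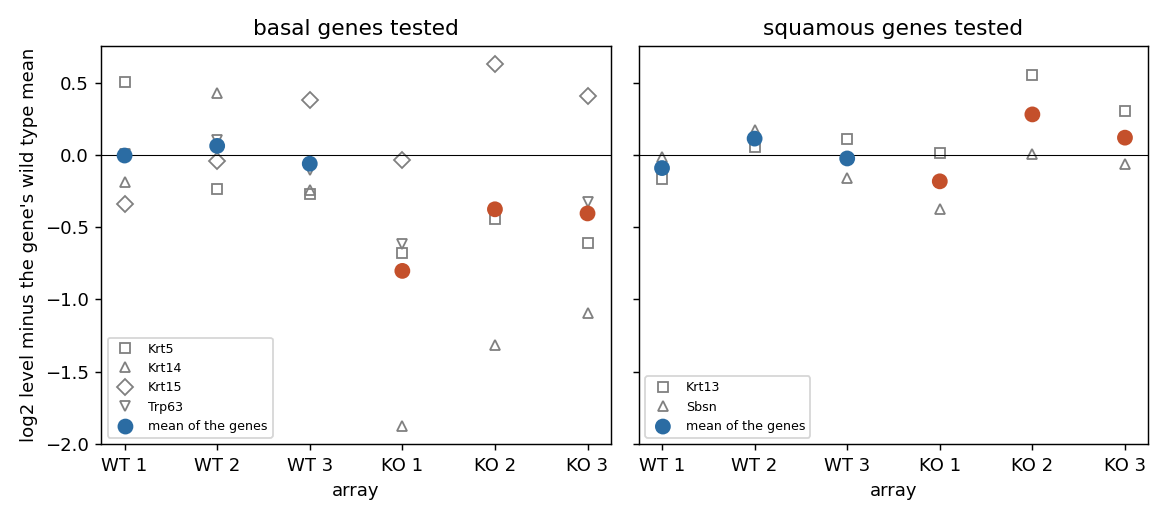
Log2 level minus the gene's wild type mean (vertical axis) on each array (horizontal axis) for the 4 basal genes (left) and the 2 squamous genes (right); grey open symbols are genes and filled circles their mean, blue in wild types and orange in knockouts. The basal mean was -0.80, -0.38 and -0.40 in KO 1, 2 and 3 and the squamous mean -0.18, 0.28 and 0.12. The contrast of the medians turned to 0.43 with normexp, which also moved features by their level.

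None of the other basal and attachment genes passed the test. Of 21 genes, 20 were tested, with 12 higher and 8 lower in knockouts and a median difference of 0.02. Krt17, a keratin of basal cells under stress, came closest, at -2.92, -2.76 and -3.03 in the wild types and -3.71, -3.76 and -3.43 in the knockouts. All knockouts were lower, with a difference of -0.73 ± 0.13 (SE) and an adjusted p of 0.0541. It passed in 4 of 20 alternatives and turned to 0.16 with normexp. Col17a1, a collagen of hemidesmosomes, was lower without overlap by -0.50 log2 (adjusted p = 0.109), and Cdh3, the basal cadherin P-cadherin, was higher by 0.95 (adjusted p = 0.0656). Of 12 other desmosome genes 7 were tested, 3 higher and 4 lower, and none passed. Dsg2, the desmoglein of simple epithelia, was higher without overlap by 0.43 (adjusted p = 0.152), the plakophilin Pkp1 by 0.92 with overlap (adjusted p = 0.156), and Pkp3 differed by -0.24.

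Of the 5 calls in the other lists, 3 were genes of squamous differentiation or their regulators. Of 28 squamous and cornified envelope genes 14 were tested, 11 lower and 3 higher, with a median difference of -0.32 against 0.0082 over all features. Calml3 and Dmkn fell, 2 of 14 beside the 0.619% of features called lower. Of the 14, 7 were lower without overlap beside 14.3% of all features, and 2 were higher without overlap beside 17%. The list was chosen with earlier results of these data known, so these shares give no support for a fall of the list. Calml3, a calmodulin-like protein of stratified epithelia, was at -3.77, -3.30 and -3.66 in the wild types and at -4.95, -4.99 and -4.53 in the knockouts. It fell by 1.25 on the log2 scale (SE 0.18, adjusted p = 0.0338). Dmkn, a secreted product of differentiated keratinocytes, was at 0.14, 0.45 and 0.44 in the wild types and -1.11, -0.58 and -1.20 in the knockouts. It fell by 1.31 (SE 0.19, adjusted p = 0.0338). Groups were well apart for both, and within the shared slide the differences were -0.999 and -1.50.

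These 2 calls depended on the settings. Calml3 passed in 9 of 20 alternatives and had a difference of 0.17 with normexp, while Dmkn passed in 10 of 20 and was lower in all of them, by -1.50 to -1.01. Neither passed without WT 1 (adjusted p = 0.108 and 0.110), without WT 2 (0.111 and 0.130) or without KO 1 (0.0994 and 0.0996), and Calml3 did not pass without KO 2 (0.0969). With the replicate number as a block they had adjusted p-values of 0.0779 and 0.0625, and with the slide as a block 0.133 and 0.0959. Dmkn lies between Sbsn and Krtdap on chromosome 7, where its first start in the RefSeq table has its window at chr7:30763506-30763755. Of its neighbours, Krtdap was below background and the Sbsn probe kept differed by -0.14. A second Dmkn probe was below background on all 6 arrays.

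Other genes of that list did not pass. Spink5, a protease inhibitor of the skin barrier, was at 1.28, 1.29 and 0.45 in the wild types and 0.11, 0.08 and -0.30 in the knockouts, lower by 2.06-fold (adjusted p = 0.0741). Ly6d, a surface protein of stratified epithelia named here after its values were seen, had the largest difference, -1.80, with an adjusted p of 0.111. Krt10, Krt6b, Rptn, Sprr1b, Sprr2d, Sprr3 and Tgm3 were below background on all 6 arrays. Signal from a closely related keratin or Sprr gene on the same probe was not tested.

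The regulators of squamous differentiation held the call with the smallest adjusted p of these lists. Of 16, 14 were tested, 12 lower and 2 higher, with a median of -0.24 against 0.0082 over all features. Of all features 49% were lower, a share that differed with the mean level. It was 35.6% from -6 to -4, 36.8% from -4 to -2 and 46.7% from -2 to 0. It was 57.1% from 0 to 2, 66.0% from 2 to 4 and 58.5% above 4. The tested regulators lay in all of these ranges. The 1 call stands beside 0.619% of features called lower. This list too was chosen with earlier results known, so the counts give no support for a joint fall. Zfp750, a transcription factor that p63 induces for the terminal differentiation of the epidermis, fell. Its levels were -2.80, -2.57 and -3.04 in the wild types and -4.27, -4.41 and -4.11 in the knockouts, each well above background. The 2 groups were separated by more than 1 log2 unit. It fell by 1.46 (SE 0.15, 2.75-fold, adjusted p = 0.0139), and by 1.42 within the shared slide. It passed in 13 of 20 alternatives. Those in which it did not were normexp (-0.14), no filter (adjusted p = 0.0704), the slide block (0.0660), the replicate block (0.0625), the Y-linked term (-1.22, adjusted p = 0.142), the fit without Y-positive arrays (0.254) and the fit without WT 1 (0.0859). Tfap2a, which encodes an AP-2 factor of surface ectoderm, was above background in 3 wild types and 1 knockout, so its lower level in the knockouts (-0.77, adjusted p = 0.0519) rests in part on values below background, and it was 0.83 with normexp. Barx2, a homeobox factor, differed by -0.62 (adjusted p = 0.171) and by 0.30 with normexp.

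**Figure D4:**
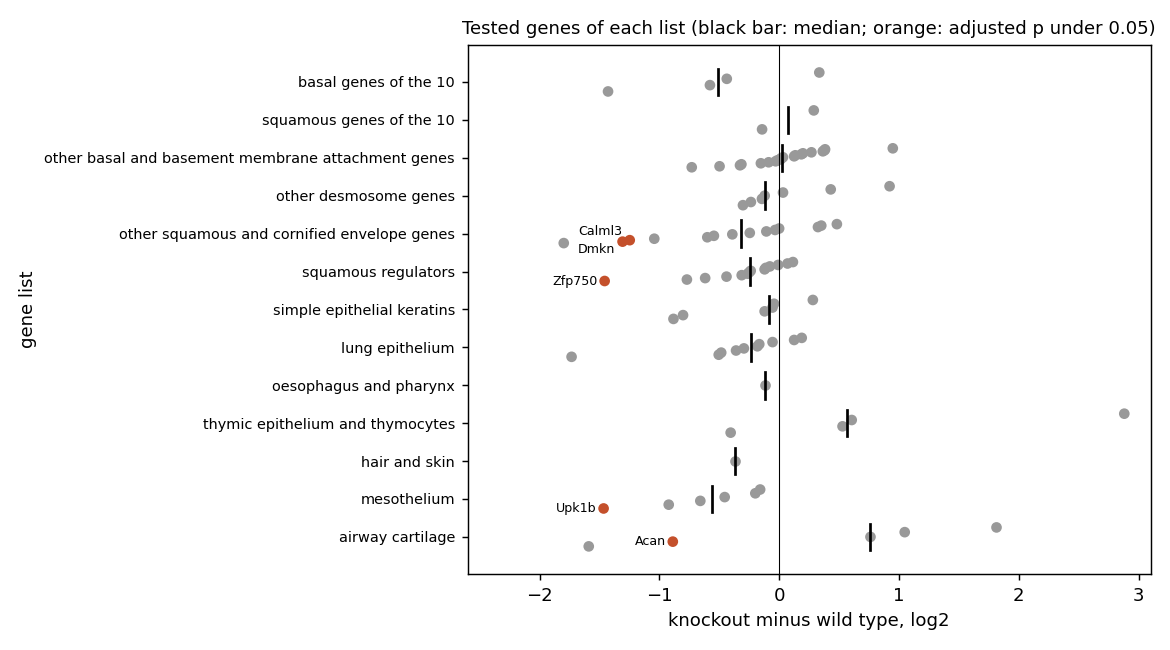
Knockout minus wild type difference in log2 intensity (horizontal axis) for every tested gene of each list (vertical axis, 1 row per list); grey points did not pass, orange points had an adjusted p under 0.05, and the black bar is the median. The basal genes have a median of -0.51 and the squamous genes 0.07, and the 5 calls are Calml3, Dmkn, Zfp750, Upk1b and Acan, of which Calml3 and Acan turn direction with normexp.

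Markers of other cells that a dissected lung could hold were measured beside these genes, and their part in the results was not tested. The summed intensity of a list, each gene relative to the 75th percentile, gives the amount on a linear scale. For the 4 basal genes the sum was 7.01 to 11.4 in wild types and 8.52 to 13.5 in knockouts, most of it Krt15. For the 6 squamous genes it was 2.29 to 2.71 and 2.01 to 2.70. All 10 lung epithelial markers were tested, 8 lower and 2 higher with none past the threshold, and their sum was 338 to 428 in wild types and 326 to 365 in knockouts. Scgb1a1, the secretory protein of club cells, was at 5.96, 6.23 and 5.00 in the wild types and 3.25, 4.29 and 4.46 in the knockouts, lower by -1.73 (adjusted p = 0.0731). Foxa2 differed by -0.29 and Sftpb by -0.48. The 6 simple epithelial keratins had sums of 191 to 231 and 196 to 230, with Krt23 at -0.88, Krt20 at -0.80 (0.73 with normexp) and Krt18 at 0.28, none of which passed.

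Of the markers of oesophagus and pharynx, Pax9, Foxe1 and Barx1 were below background on all 6 arrays, and Tbx1 differed by -0.12 (0.12 without the Y-positive arrays, 0.069 without KO 3) with sums of 4.18 to 5.51 and 3.49 to 5.91. For thymus, 10 of 12 markers had a probe and 4 were tested. The sums were 0.345 to 0.603 in wild types and 0.645 to 0.900 in knockouts, which did not overlap. Most of each sum was the chemokine Ccl25. It was higher by 0.53 (adjusted p = 0.231, limma) without overlap, as were 17% of all features, with WT 3 at -1.20 and KO 3 at -1.18. Foxn1, Psmb11, Rag1, Rag2 and Cd8a were below background on all arrays. Aire, a regulator of medullary thymic epithelium, was higher in the knockouts without overlap, by 2.88 (adjusted p = 0.0587, above background in 2 wild types and 3 knockouts), while Dntt differed by -0.40 (0.90 with normexp) and Prss16 by 0.61. For hair and skin 1 of 8 genes was tested, Krtap3-1 at -0.37, and the sums were 3.77 to 4.64 and 2.56 to 3.94. Nearly all of each sum was the 1 probe kept for Krtap3-1. The other probes of that gene were below background on all 6 arrays, so the sums are no measure of hair or skin. Krt2, Krt27 and Krt71 were below background throughout.

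All 6 mesothelial markers, genes of the lining of the pleura, were lower, beside 49% of all features. Their sums were 50.4 to 53.3 in wild types and 39.8 to 49.1 in knockouts and did not overlap. Most of each sum was Msln alone, which differed by -0.16 (adjusted p = 0.420, limma). Upk1b, a uroplakin, fell by 1.47 (adjusted p = 0.0375), with -0.92 for Upk3b and -0.66 for Lrrn4 (0.14 with normexp), which did not pass. Upk1b lies on chromosome 16, as do Dppa2 and Dppa4, and what that means for its level was not tested. It passed in 9 of 20 alternatives and did not without WT 1 (0.164), WT 2 (0.136), KO 1 (0.0682) or KO 3 (0.0561). Of the airway cartilage genes 5 of 6 were tested, 3 higher and 2 lower, with sums of 1.21 to 2.19 and 1.22 to 1.81. Acan, the proteoglycan of cartilage, was above background in all wild types and in none of the knockouts. Its levels were -6.26, -5.97 and -6.12 in the wild types and -6.77, -7.09 and -7.16 in the knockouts. The lowest signal above background in KO 1, -5.79, lay over the wild type mean of -6.12, so no fold can be bounded. Acan differed by -0.89 with an adjusted p of 0.0439 (limma). It entered the test through the wild types alone, so this p sets measured signal against signal below background. It turned to 0.86 with normexp and passed in 6 of 19 alternatives, not without WT 1 (0.138), WT 2 (0.151), KO 1 (0.0569), KO 2 (0.112) or KO 3 (0.0612). Chad differed by -1.59 and Col9a1 by 1.81, neither past the threshold.

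The genes whose pattern over the 6 arrays was most like the mean of the basal genes were picked as the highest Pearson r among 13921 genes. They were Rnf135 (r = 0.998, Spearman rho = 1), Arfgap3 (0.998 and 1), D630029K05Rik (0.996 and 0.943), Hibadh (0.994 and 0.886) and Kdm2a (0.994 and 0.886). Each was lower in the 3 knockouts than in the wild types, by -0.68 to -0.30, and none passed the test. For the squamous mean they were Egln3 (0.988 and 1), Zfp451 (0.986 and 1), Fbxl5 (0.983 and 0.943), 1700073E17Rik (0.975 and 0.943) and Huwe1 (0.971 and 1). With 6 arrays and so many genes, values this high are a ranking and no evidence of a relation.

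**Figure D5:**
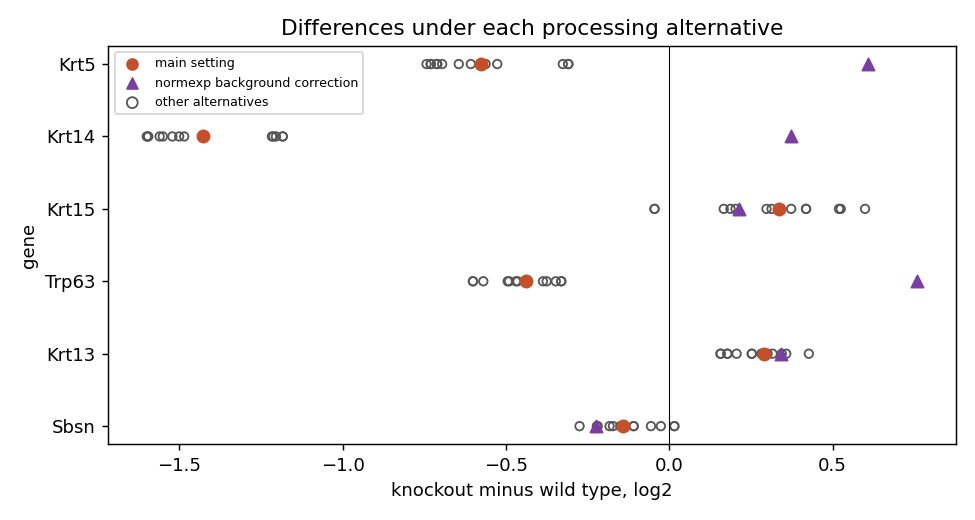
Knockout minus wild type difference in log2 intensity (horizontal axis) of the 6 tested genes (vertical axis) in the main processing (orange circles), with normexp background correction (purple triangles) and in the other alternatives (open circles). Krt5, Krt14 and Trp63 stay under 0 in all settings but normexp, which gives 0.61, 0.37 and 0.76, and Krt15 and Sbsn cross 0 in the settings that model or leave out the Y-positive arrays.

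Across the 118 pairs of a tested gene of the 10 and an alternative, 106 kept their direction and their side of the threshold, 5 passed it, all of them for Krt14, and 7 turned direction. Those 7 were normexp for Krt5, Krt14 and Trp63, and the Y-linked term and the fit without Y-positive arrays for Krt15 (-0.045) and Sbsn (0.016).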

How the data were processed

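Feature Extraction, Agilent's image software, read the 6 arrays, per the file headers. The deposited scanner files hold a background-subtracted intensity per spot with no scaling between arrays, and flags (unit other) for outlier spots and for spots clear of background. A table of log2 values was deposited too, made by the authors with GeneSpring GX11 per the design text. It matched quantile-normalized log2 intensities relative to the wild type median (median absolute difference under 0.001) with column medians of 0, 0, 0, 0.0108, -0.00698 and -0.000844.

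Here the 75th percentile of an array was subtracted from the log2 intensity of its spots. Between 77 and 110 outlier spots per array were left out, and no spot was saturated. Spots of a probe were averaged, and each member probe has 1 spot. Accessions were named through RefSeq genes of GRCm38.p6, which gave 26690 of 41174 probes (64.8%) a symbol. The test took probes that cleared background in every lung of one group or of both, and for a gene with several the one of highest mean. It was limma's, version 3.58.1 with R 4.3.3 (two-sided, Benjamini-Hochberg over 19857 features, threshold 0.05). Tested on simulated data for this comparison, the fit recovered 77 of 100 features changed by 1 log2 unit and 98 of 100 changed by 2. It made 15 false calls. The simulated noise was independent between arrays, without slide or sex effects, so these counts may not hold for the real arrays. The number of arrays, 3 per group, limits precision.

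The members and the gene lists were chosen with earlier results of these data known. Named genes were every member and, of each other list, the 3 tested genes of smallest p and any call. The scanner files were used without mean signals, so normexp (offset 50) used the median foreground and background signals. Replicate numbers did not pair the arrays: the correlations of deviations were -0.020, 0.042 and 0.027 for numbers 1, 2 and 3.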

Additional observations from a re-analysis of the deposited data

How the results depend on the processing

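Of the features tested, 266 were called (143 higher, 123 lower), and the count was 96 with a filter of at least 1 array above background, 28 with no filter, 23 with the slide as a block, 1701 with the file label's number as a random block and 17 with a term for Y-linked signal. It was 0 by limma with normexp (1515 features with an unadjusted p under 0.05) and 0 without the Y-positive arrays (1456). Leaving out 1 array gave 27 (without WT 1) to 1930 (without WT 3), with 66 without WT 2, 94 without KO 1, 87 without KO 2 and 443 without KO 3. Higher and lower calls split as 58 and 138 after quantile normalization, 59 and 137 for the authors' values and 87 and 231 with median scaling, which moved the median of all features to -0.12. Normexp moved it to 0.16 and no filter to 0.14.

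The 5 calls over the other lists became 0 with normexp, no filter, the Y-linked term or no Y-positive arrays, 1 with the filter of at least 1 array or the slide block, and 16 with the file label block, and ran from 0 (without WT 1) to 19 (without WT 3), with 1 without WT 2 or KO 1 and 3 without KO 2. With the replicate block the counts were 54 features and 0 list genes, so that the 5 list calls were lost, while no gene of the 10 changed its call. The arrays share only a number.

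The basal minus squamous contrast of -0.58 was -0.74 after quantile normalization or on the authors' values, 0.43 with normexp, -0.19 with all 6 arrays above background, -0.80 with at least 1, -0.67 with the slide block, -0.42 with the Y-linked term or without Y-positive arrays, and -0.67 to -0.41 with 1 array left out. Normexp turned Krt5 (0.61), Trp63 (0.76), Krt14 (0.37), Krt17 (0.16), Calml3 (0.17), Tfap2a (0.83), Barx2 (0.30), Krt20 (0.73), Dntt (0.90), Lrrn4 (0.14) and Acan (0.86). The Y-linked term and the fit without Y-positive arrays turned Krt15 (-0.045), Sbsn (0.016) and Tbx1 (0.12), and Tbx1 ran from -0.31 to 0.069 (without KO 3) with 1 array left out. The cause was not tested. Of 575 pairs of another named list gene and an alternative, 491 kept direction and call, 50 lost the call, 23 gained it and 11 turned. Krt6a, Dsg3 and Krtdap were above background on none of the 6 arrays, and Krt4 on 1.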
